A study of Mus musculus with 4 samples.

Results

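Mitochondrially encoded transcripts were followed in testes of juvenile mice with and without an intact allele of Kctd19, a gene expressed in meiotic germ cells. The members are all rows of the deposited expression tables whose gene symbol begins with mt-, and they number 37 of 55401. They comprise 13 protein-coding, 2 ribosomal RNA and 22 transfer RNA genes. The series holds 4 poly(A) RNA libraries from testes of untreated C57BL/6J mice at postnatal day 14. The 2 controls (het) carry 1 intact allele (Kctd19+/-), the 2 mutants (ko) carry none (Kctd19-/-), and the series' design text calls the replicates biological. No wild-type library was analysed here, and the deleted stretch of Kctd19 is not named in the labels.

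The mitochondrial genome is a small circle that codes for subunits of the respiratory chain and of ATP synthase, and for the ribosomal and transfer RNAs that translate them inside the organelle. It is transcribed from both strands as long precursors, which are cut into single RNAs mostly at the transfer RNAs that lie between the other genes. Most of the messenger RNAs are polyadenylated, the ribosomal RNAs carry short tails, and mature transfer RNAs end in CCA. Selection on poly(A) therefore does not take all 3 classes alike. In testis, mitochondria feed steroid synthesis in Leydig cells, and they change in shape as germ cells pass through meiosis. All other respiratory chain subunits, and every protein that copies, transcribes or translates the mitochondrial genome, come from nuclear genes.

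Library totals were estimated from the step that 1 read makes in the deposited values, as no reported total was used. They were 14638666 and 12155098 reads in the controls and 19430367 and 14573572 in the mutants. Reads recovered over all genes with a known length came to 99.8% to 100.7% of these estimates. Members had 426686 to 657902 recovered reads a library. Kctd19 stood at 29.7 and 18.2 FPKM in the controls and 12.8 and 15.6 FPKM in the mutants (FPKM divides a gene's reads by its exon length and by the library total). Its RNA thus remained in the ko libraries, both below both het libraries, and it did not pass the test (limma with Benjamini-Hochberg adjusted p = 0.529). Markers of Sertoli, Leydig, spermatogonial and spermatocyte cells were present in every library, and no listed marker was at 0 in all 4. In this bulk tissue, fewer cells of a type and less RNA per cell cannot be told apart.

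The most visible feature of the members was a gap in the middle of the genome. Of the 37 members, 27 had a mean above 5 FPKM over the 4 libraries, and 10 lay at 2.20 FPKM or less. Those 10 are neighbours, mt-Td, mt-Co2, mt-Tk, mt-Atp8, mt-Atp6, mt-Co3, mt-Tg, mt-Nd3, mt-Tr and mt-Nd4l, and fill chrM:6942-10173 (GRCm38) with no other annotated gene between them. The members next to the limit were mt-Tf, with a mean of 8.49 FPKM above it, and mt-Td, with 2.20 FPKM below it. No member of the gap reached more than 22 reads in any library, in het or in ko.

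**Figure D1:**
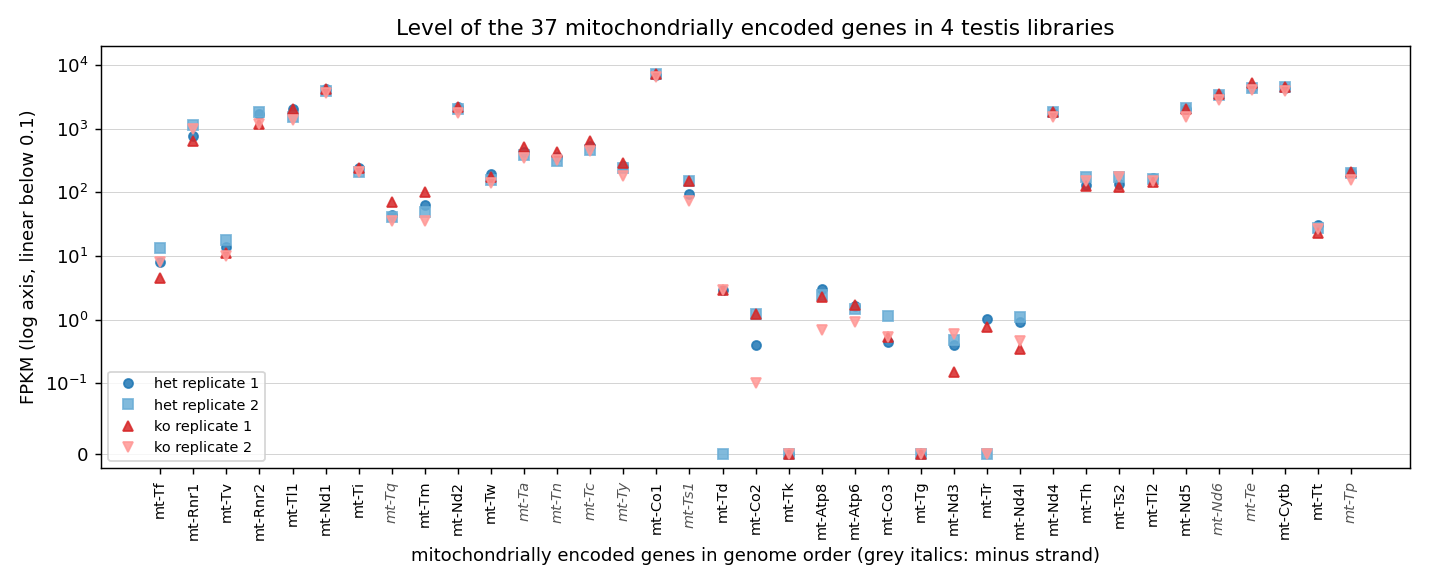
FPKM of each member in the 4 libraries, in genome order (symbols: libraries; the axis is logarithmic above 0.1 FPKM and linear below). The run from mt-Td to mt-Nd4l lies at no more than 3.01 FPKM in any library, between the high genes mt-Co1 and mt-Nd4.

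The gap coincides with a stretch of mitochondrial sequence that also exists in the nucleus. Such nuclear insertions are known in many mammals, and GRCm38 carries a long one on chromosome 1, annotated as unprocessed pseudogenes. By blastn, 7 of these pseudogenes aligned in unbroken order to chrM:6390-11042, on the minus strand of chr1:24611535-24616188. The offset between both places was constant over the first 5 and shifted by 1 base for the last 2. The copies of mt-Co2, mt-Atp6, mt-Co3 and mt-Nd4l were 100% identical over 681, 678, 783 and 294 bases, which is all but the last 1 to 3 bases of each gene. The opening bases of mt-Co2, the gene for the subunit of cytochrome oxidase that receives electrons from cytochrome c, are shown beside this copy (Gm28661) and beside a second, diverged copy on chromosome 2 (Gm13341), with capitals at the positions where the chromosome 2 copy differs.
mt-Co2, chrM:7013-7072, plus strand: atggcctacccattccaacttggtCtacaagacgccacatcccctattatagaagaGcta
Gm28661, chr1:24615506-24615565, minus strand: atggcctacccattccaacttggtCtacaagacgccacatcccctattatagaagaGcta
Gm13341, chr2:22587903-22587962, minus strand: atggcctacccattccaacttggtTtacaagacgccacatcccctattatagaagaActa
Counted from the first base of mt-Co2, the chromosome 2 copy carried the substitutions C25T and G57A in this window, and its identity to mt-Co2 was 95.9% over the whole gene.

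The copy of mt-Nd3, which codes for a small complex I subunit, had 1 mismatch in 345 bases (identity 99.71%). It was T3C, counted from the first base of mt-Nd3, and stands in capitals here.
mt-Nd3, chrM:9459-9488, plus strand: atTaacctgtacactgttatcttcattaat
Gm28438, chr1:24613090-24613119, minus strand: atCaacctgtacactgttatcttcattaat
Of the chromosome 1 copies, Gm28438 had the most reads. It stood at 17.2 and 20.03 FPKM in the controls and 24.3 and 17.9 FPKM in the mutants, from 84 to 163 reads a library, while mt-Nd3 had 1 to 3 reads a library. The other chromosome 1 copies had means of 0.680 to 2.88 FPKM, Gm29216 included, which also has 1 mismatch and had 13 to 33 reads. None of the 6 chromosome 1 copies that passed the filter on low values was called between ko and het by limma or voom (the lowest adjusted p was 0.506, Benjamini-Hochberg).

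The 5 protein-coding members with a near-complete chromosome 1 copy summed to 31 and 39 reads in the controls and to 49 and 21 reads in the mutants. A difference between the genotypes was not detectable in them at this depth. mt-Co2 had 4 and 10 reads in the controls and 16 and 1 in the mutants. mt-Co3, a core cytochrome oxidase subunit, stood at 0.436 and 1.154 FPKM in the controls and 0.525 FPKM in each mutant library. The groups overlapped in both genes, and mt-Co3 rested on 5 to 11 reads a library. mt-Atp6, the ATP synthase subunit of the proton channel, stood at 1.60 and 1.45 FPKM in the controls and 1.66 and 0.907 FPKM in the mutants. mt-Nd3 stood at 0.393 and 0.473 FPKM in the controls and 0.148 and 0.592 FPKM in the mutants. mt-Nd4l, another small complex I subunit, had 4 reads in each het library and 2 in each ko library, so its ko values lay below its het values by a difference of 2 reads. How reads that match both places were treated is not given in the sources used here, and the part of the nuclear copy in these low values was not tested.

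The chromosome 1 copies covered mt-Nd4 and mt-Co1 only in part, and both genes were high. Copies with more mismatches also spanned high genes in full or nearly so, Gm13340 on chromosome 2 for mt-Co1 (97.6% identity), Gm11408 for mt-Nd6 (93.6%) and Gm11410 for mt-Cytb (92.9%). The copy of mt-Nd4 took in its first 876 bases without a mismatch (63.6% of the gene), and that of mt-Co1 its last 483 bases with 1 mismatch (31.3%). If no read was counted in those stretches, the reads of mt-Nd4 belong to the other 502 bases, and its level would be 4868 and 4994 FPKM in the controls and 5055 and 4234 FPKM in the mutants in place of the deposited values. Levels of these genes relative to other members therefore carry this uncertainty, while the ratio of ko to het for each gene does not depend on the length used.

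**Figure D2:**
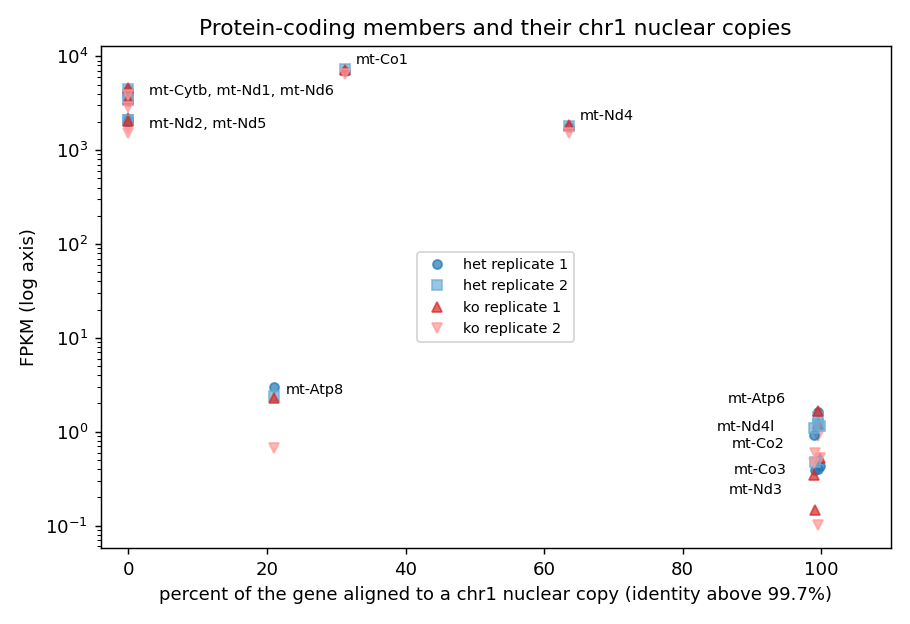
FPKM (log axis) of the 13 protein-coding members in the 4 libraries against the percent of each gene aligned to a chromosome 1 copy. The 5 genes at the right, with near-complete copies, lie below 2 FPKM, and mt-Atp8 is low with 21.1% covered by an annotated copy.

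mt-Atp8 is low although only 43 of its 204 bases align to an annotated pseudogene of chromosome 1. It codes for a short ATP synthase subunit and shares a messenger RNA with mt-Atp6, and the reading frames overlap over those 43 bases. The overlap is shown with the start codon of mt-Atp6 and the stop codon of mt-Atp8 in capitals.
mt-Atp8 and mt-Atp6 overlap, chrM:7927-7969, plus strand: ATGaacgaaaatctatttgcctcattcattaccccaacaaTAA
mt-Atp8 stood at 3.01 and 2.42 FPKM in the controls and 2.27 and 0.673 FPKM in the mutants, from 9, 6, 9 and 2 reads. Both ko values lay below both het values, and the difference did not pass limma (log2 fold change -0.66, SE 0.35, Benjamini-Hochberg adjusted p = 0.633). The rest of mt-Atp8 and the transfer RNA genes of the gap lie between annotated pseudogenes, and the nuclear sequence there was not used here. Of those transfer RNAs, mt-Tk (lysine) and mt-Tg (glycine) had 0 reads in all 4 libraries, which allows up to 2.27 to 3.797 FPKM a library (counting error only, with 3 reads as the limit). mt-Tr (arginine) had at most 1 read and mt-Td (aspartate) at most 4.

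The 7 protein-coding members above 5 FPKM had means of 1744 (mt-Nd4) to 7004 FPKM (mt-Co1), and none of them passed the test between ko and het. mt-Co1, the catalytic subunit of cytochrome oxidase, was the highest member at 7051 and 7368 FPKM in the controls and 7112 and 6484 FPKM in the mutants. It alone took 32.02% to 34.07% of all mitochondrial reads. Next among the protein-coding members came mt-Cytb, the central subunit of complex III, at 4343 and 4526 FPKM in the controls and 4544 and 3844 FPKM in the mutants. In both genes ko replicate 1 lay among or above the het libraries and ko replicate 2 lay below them.

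Complex I subunits formed the rest. mt-Nd1, which lies where ubiquinone binds, stood at 4133 and 3878 FPKM in the controls and 4283 and 3575 FPKM in the mutants. mt-Nd2, a proton-pumping subunit, stood at 2167 and 2076 FPKM in the controls and 2218 and 1744 FPKM in the mutants. mt-Nd4, another pumping subunit, stood at 1773 and 1819 FPKM in the controls and 1841 and 1542 FPKM in the mutants. These 3 repeat the order of mt-Cytb, with ko replicate 1 highest and ko replicate 2 lowest. mt-Nd5, the pumping subunit at the far end of the membrane arm, stood at 2043 and 2114 FPKM in the controls and 2021 and 1529 FPKM in the mutants, so that both ko values lay below both het values, by a small margin in ko replicate 1. Its log2 fold change was -0.24 (SE 0.23, 95% interval -0.84 to 0.36), and it did not pass limma (Benjamini-Hochberg adjusted p = 0.776).

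mt-Nd6 is the protein-coding gene of the minus strand, and it stood at 3354 and 3396 FPKM in the controls and 3500 and 2860 FPKM in the mutants. Its last 14 bases overlap the end of mt-Nd5 on the opposite strand, shown here on each strand with the stop codon in capitals.
mt-Nd5 end, chrM:13552-13565, plus strand: ttaatctcgagTAA
mt-Nd6 end, chrM:13552-13565, minus strand: ttactcgagatTAA
Per length, mt-Nd6 exceeded mt-Nd5 in every library, by ratios of 1.64 and 1.61 in het and 1.73 and 1.87 in ko. The messenger RNA of mt-Nd5 is known to run on through the region opposite mt-Nd6, and the sources used here do not give the strand setting of the counting. Reads of the opposite strands therefore cannot be told apart in this stretch. mt-Nd6 made up 24.9% and 25.6% of the summed FPKM of the 7 complex I members in het and 25.2% and 25.4% in ko. The difference of the means was 0.101 percentage points (two-sided exact permutation test, p = 1, where 0.3333 is the smallest p that 2 against 2 libraries allow).

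Across these 7 genes the fold changes were small and of 1 sign, and in 5 of them the sign changed without 1 library. All 7 log2 fold changes lay below 0 (from -0.24 to -0.033), though with quantile normalization mt-Co1, mt-Nd2 and mt-Nd4 lay above 0 (0.084, 0.11 and 0.029). By limma on FPKM the 95% intervals of the 7 reached from -0.95 to 0.78 at their widest, a range that still holds sizeable changes in either direction. Both ends belong to mt-Co1, and this width depends on the fit. Its SE was 0.33 in limma on FPKM, 73.5 in limma with no filter and 0.11 in voom. The voom SEs of the 7 genes ran from 0.11 (mt-Nd4) to 0.13 (mt-Nd5). Without ko replicate 2, the log2 fold changes of mt-Nd1, mt-Nd2, mt-Nd4, mt-Nd6 and mt-Cytb were above 0 (0.035 to 0.097), while those of mt-Co1 and mt-Nd5 stayed below 0 (-0.019 and -0.040).

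The large ribosomal RNA was lower in ko than in het in 1 of the tests applied, and it was the single member called in any fit on all 4 libraries. mt-Rnr2 (chrM:1094-2675), the RNA of the large mitochondrial ribosomal subunit, stood at 1684 and 1806 FPKM in the controls and 1187 and 1169 FPKM in the mutants. The means were 1745 ± 86.02 and 1178 ± 12.7 FPKM (SD, n = 2 each), and the groups did not overlap. The gap between them exceeded the difference between replicates in either group. The log2 fold change was -0.57 (SE 0.17, 95% interval -1.01 to -0.12). Limma on FPKM did not call it over all genes (Benjamini-Hochberg adjusted p = 0.474), while limma voom on whole reads did (log2 fold change -0.57, SE 0.10, Benjamini-Hochberg adjusted p = 0.00886). The voom call was lost without het replicate 1 (Benjamini-Hochberg adjusted p = 0.0969) and without het replicate 2 (Benjamini-Hochberg adjusted p = 0.107), where the log2 fold changes were -0.62 and -0.52. It held without ko replicate 1 or ko replicate 2, where the log2 fold changes were -0.58 and -0.56. By voom, mt-Nd5 had a log2 fold change of -0.44 without ko replicate 1, and mt-Rnr1 had -0.51 without ko replicate 2. Each of these fits rests on 1 ko library.

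A ratio within each library, which uses the same mt-Rnr2 values and is no separate measurement, gave the same order. mt-Rnr2 per mt-Co1, in FPKM, was 0.239 and 0.245 in het and 0.167 and 0.180 in ko, with no overlap (two-sided exact permutation test, p = 0.3333, the smallest that 2 against 2 allow). The small ribosomal RNA had overlapping groups. mt-Rnr1 (chrM:70-1024) stood at 757 and 1133 FPKM in the controls and 647 and 1003 FPKM in the mutants, high in both libraries numbered 2 and low in both numbered 1 (log2 fold change -0.20 with an SE of 0.31, Benjamini-Hochberg adjusted p = 0.868 by limma). Both RNAs come from the same precursor, and their ratio, mt-Rnr1 over mt-Rnr2, was 0.449 and 0.627 in het and 0.546 and 0.858 in ko. Ribosomal RNA made up 9.96% and 11.2% of mitochondrial reads in het and 7.37% and 9.55% in ko.

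**Figure D3:**
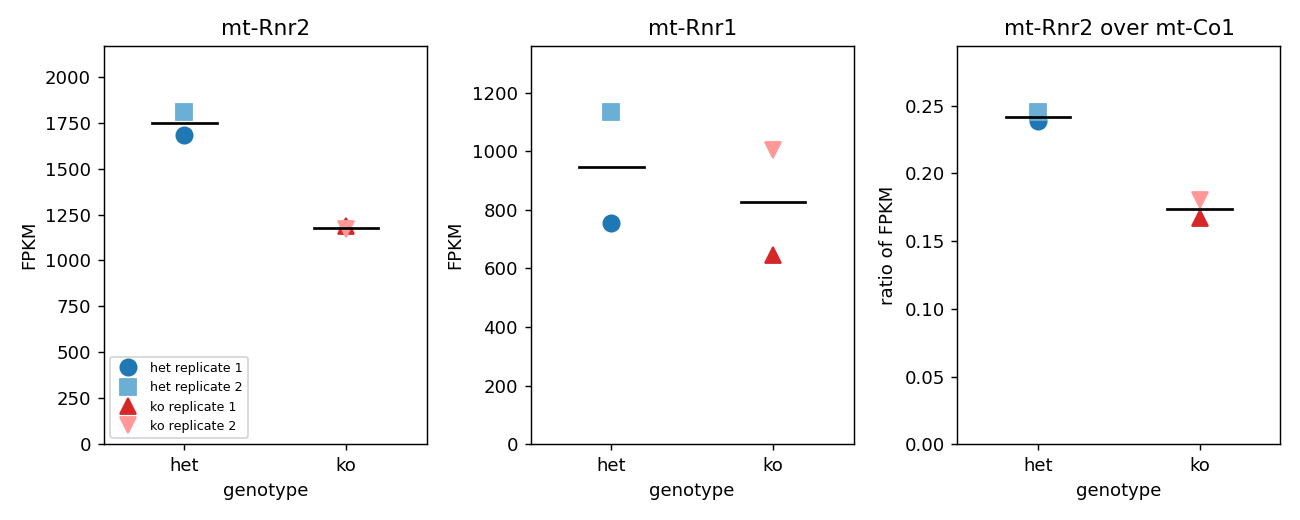
FPKM of mt-Rnr2 and mt-Rnr1 and the ratio of mt-Rnr2 to mt-Co1 by genotype (symbols: libraries; black bars: means; axes start at 0). The ko libraries lie below the het libraries for mt-Rnr2 and for the ratio, and the groups overlap for mt-Rnr1.

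mt-Tv, the valine transfer RNA between both ribosomal RNAs, also had lower values in both ko libraries, but from few reads. It stood at 13.9 and 17.9 FPKM in the controls and 11.2 and 9.94 FPKM in the mutants, from 14, 15, 15 and 10 reads. Its log2 fold change was -0.54 (SE 0.15), which neither limma nor voom called (Benjamini-Hochberg adjusted p = 0.441 and 0.756). mt-Tf, the phenylalanine transfer RNA at the head of the same precursor, had 6 to 11 reads a library and overlapping groups.

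Transfer RNA genes, each 59 to 75 bases long, covered a wide range of levels. Of the 22, 18 had a mean above 5 FPKM, from 8.49 (mt-Tf) to 4518 (mt-Te). The level at a transfer RNA gene can hold uncut precursor or an RNA of the other strand as well as the mature molecule, and these files do not separate them. mt-Te, for glutamate, stood at 4388 and 4415 FPKM in the controls and 5216 and 4054 FPKM in the mutants, close to its neighbours mt-Nd6 and mt-Cytb. mt-Tl1, for leucine, stood at 2037 and 1528 FPKM in the controls and 2030 and 1366 FPKM in the mutants, again with the libraries of 1 number alike. mt-Tl1 sits without any spacer between mt-Rnr2 and mt-Nd1, as the sequence of the junction shows, with mt-Tl1 in capitals.
mt-Rnr2 to mt-Nd1, chrM:2646-2780, plus strand: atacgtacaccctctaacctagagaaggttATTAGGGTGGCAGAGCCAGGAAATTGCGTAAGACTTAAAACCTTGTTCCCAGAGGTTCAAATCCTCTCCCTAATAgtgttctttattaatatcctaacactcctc
Per length, mt-Tl1 reached 0.493 and 0.394 of mt-Nd1 in het and 0.474 and 0.382 in ko.

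The next group was the cluster of minus-strand transfer RNAs between mt-Nd2 and mt-Co1. mt-Tc, for cysteine, was its highest member at 535 and 459 FPKM in the controls and 644 and 444 FPKM in the mutants. mt-Ta (alanine), mt-Tn (asparagine) and mt-Ty (tyrosine) had means of 415, 353 and 242 FPKM. In all 4 of these genes ko replicate 1 was the highest library, and in mt-Ta, mt-Tc and mt-Ty ko replicate 2 was the lowest. All 8 transfer RNA genes of the minus strand were above 5 FPKM, with a median of 298 FPKM, against 148 FPKM for the 10 of the plus strand above that level.

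The remaining transfer RNAs showed no difference past the test. mt-Ti (isoleucine), mt-Tp (proline) and mt-Tw (tryptophan) had means of 225, 196 and 165 FPKM. mt-Tl2, mt-Ts2 and mt-Th, which follow mt-Nd4 in a row, had means of 156, 151 and 146 FPKM. mt-Ts1, mt-Tm, mt-Tq and mt-Tt had means of 117, 61.9, 47.06 and 26.8 FPKM. mt-Th and mt-Ts2 were higher in both libraries numbered 2, as mt-Rnr1 was. mt-Tl2 and mt-Tt lay lower in both ko libraries, mt-Tl2 at 166 and 165 FPKM in the controls against 143 and 151 FPKM in the mutants, and mt-Tt at 22 to 30 reads a library. The ko libraries lay far apart in mt-Tm, for methionine, which stood at 63.4 and 48.9 FPKM in the controls and 100.7 and 34.8 FPKM in the mutants. Over the 18 transfer RNAs above 5 FPKM, log2 fold changes ran from -0.68 to 0.23 and 12 were below 0.

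Over all members, 30 passed the filter of a mean of at least 1 FPKM, and limma on FPKM called 0 of them (mt-Tv and mt-Rnr2 were lower at an unadjusted p under 0.05). Among all 17905 genes tested, limma called 0.218% in either direction and 0.0112% lower, and 4.41% were lower at an unadjusted p under 0.05. Voom called 1 member lower, mt-Rnr2, against 1.39% of all genes in either direction and 0.619% lower. The 7 members that did not pass the filter were mt-Co2, mt-Tk, mt-Co3, mt-Tg, mt-Nd3, mt-Tr and mt-Nd4l. The median log2 fold change was -0.10 over the 30 tested members and 0.01 over all genes tested. Of the 30, 23 lay below 0 against 47.9% of all genes. That count depended on ko replicate 2. It was 19 without het replicate 1, 22 without het replicate 2, 26 without ko replicate 1 and 12 without ko replicate 2.

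The ko libraries differed from each other in most members. Among the 27 members above 5 FPKM, the ko replicates differed by more than the het replicates in 22, and ko replicate 2 was the lowest of the 4 libraries in 20. The difference between the groups exceeded both replicate differences in 4 of the 27, against 28.5% of all genes tested. Both ko values lay below both het values in 5 of the 27 and above them in 0, where 19.7% and 22.1% of all genes did so. Without ko replicate 2 the median of the 30 tested members was 0.044, and without ko replicate 1 it was -0.23.

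**Figure D4:**
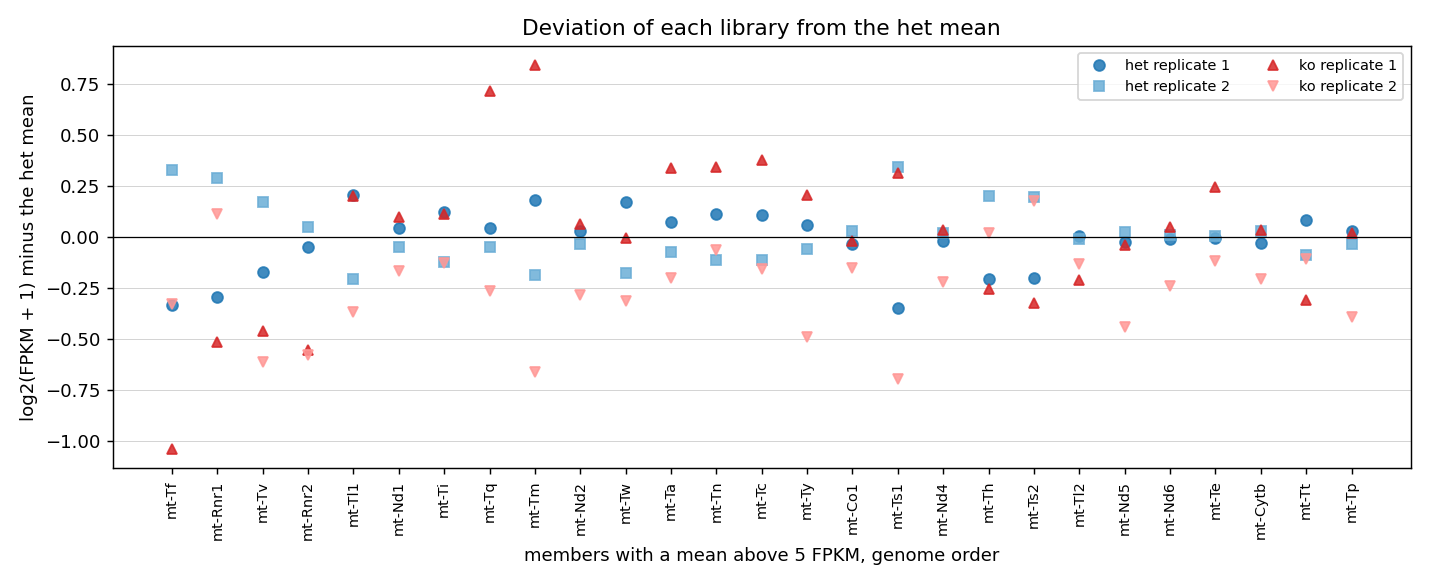
Deviation of each library from the het mean, on the log2(FPKM + 1) scale, for the 27 members above 5 FPKM in genome order (symbols: libraries). The ko replicate 2 symbols are the lowest of the 4 in 20 genes, and both ko symbols lie below both het symbols at mt-Rnr2.

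As a share of FPKM times exon length, summed over all genes with a known length, members took 3.40% and 3.50% in het and 3.39% and 2.92% in ko. Both ko libraries lay below both het libraries, ko replicate 1 only narrowly. The means were 3.45% ± 0.0702 and 3.16% ± 0.336 (SD, n = 2 each), a difference of -0.293 percentage points (two-sided exact permutation test, p = 0.3333, the smallest that 2 against 2 allow). The difference was -0.531 without ko replicate 1 and -0.0555 without ko replicate 2. As a share of summed FPKM the order did not hold, with 10.44% and 10.42% in het and 10.67% and 8.50% in ko (two-sided exact permutation test, p = 1).

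Nuclear genes for mitochondrial proteins were read from the same fit, and limma and voom called 0 of them. The lists held 229 genes, of which 227 were tested, and at an unadjusted p under 0.05 there were 29 higher and 4 lower, all 4 of them germ cell isoforms. Of all genes tested, 4.9% were higher, 4.41% lower and 9.31% either at that p. In 174 of the 227 the log2 fold change was above 0, against 52.1% of all genes, with a median of 0.10 against 0.01 for all genes tested. Cytochrome oxidase subunits had the highest median, 0.23 over 11 genes, all 11 of them above 0. Cox8a stood at 77.5 and 79.6 FPKM in the controls and 121 and 97.9 FPKM in the mutants, and Cox6b1 at 69.6 and 76.8 against 103 and 87.7 FPKM. Neither passed limma (Benjamini-Hochberg adjusted p = 0.448 and 0.495).

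The other nuclear complexes had medians between 0.05 and 0.15. Nuclear complex I subunits had a median of 0.12 over 36 genes, with Ndufc1 at 17.5 and 17.8 FPKM in the controls and 24.3 and 22.9 FPKM in the mutants and Ndufa1 at 107 and 102 against 140 and 131 FPKM. In complex III, with a median of 0.15 over 9 genes, Uqcr11 stood at 48.1 and 52.5 against 72.02 and 65.1 FPKM, and Uqcrh at 65.9 and 70.6 against 83.7 and 79.3 FPKM. ATP synthase subunits had a median of 0.13 over 15 genes, led by Atp5k at 41.5 and 40.5 against 63.1 and 53.4 FPKM and Atp5e at 35.9 and 35.8 against 48.4 and 44.8 FPKM. Complex II, which is wholly nuclear, had a median of 0.05 over 4 genes, with Sdhd at 66.9 and 60.5 against 70.5 and 64.4 FPKM and Sdhc at 25.1 and 25.0 against 30.2 and 23.4 FPKM. In each pair the controls come first. Both ko values lay above both het values in 15 of 36 genes of complex I, 5 of 9 of complex III, 10 of 15 of ATP synthase and 0 of 4 of complex II, where 22.1% of all genes did so. The genes named here had the smallest p of their lists.

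Genes that maintain and express the mitochondrial genome lay near the middle of all genes. The 16 genes of its replication and transcription, among them the polymerase Polrmt and the packaging factor Tfam, had a median of 0.03, and their smallest p belonged to the single-strand binding protein Ssbp1 (4.23 and 4.88 against 5.15 and 5.20 FPKM) and the exonuclease Mgme1 (7.51 and 7.30 against 7.95 and 8.01 FPKM). The 17 genes of RNA processing and stability had a median of 0.01, with Fastk at 27.2 and 26.2 against 29.99 and 29.5 FPKM and Hsd17b10, a subunit of mitochondrial RNase P, at 22.1 and 25.0 against 28.9 and 25.8 FPKM. The 17 mitochondrial aminoacyl-tRNA synthetases had a median of 0.05, with Sars2 at 4.598 and 5.14 against 6.20 and 5.99 FPKM and Mars2 at 7.17 and 5.82 against 5.36 and 4.76 FPKM. None of these differences passed limma.

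The 78 genes named for proteins of the mitochondrial ribosome had a median of 0.14. They were taken by symbol alone (Mrpl or Mrps and a number), and 65 lay above 0 where 52.1% of all genes did. At an unadjusted p under 0.05, 10 of them were higher and 0 lower, against 4.9% and 4.41% of all genes. Mrps26 stood at 5.03 and 4.87 FPKM in the controls and 6.83 and 6.55 FPKM in the mutants, and Mrpl11 at 11.7 and 11.2 against 14.2 and 14.3 FPKM. Genes of import, matrix and biogenesis had a median of 0.09 over 14 genes, with the chaperonin Hspe1 at 55.01 and 53.1 against 67.7 and 62.2 FPKM and the import pore Tomm40 at 12.9 and 12.3 against 15.2 and 13.7 FPKM.

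Mitochondrial isoforms of germ cells and their somatic counterparts had medians of opposite sign. All 6 germ cell forms had a log2 fold change below 0 (median -0.65, 4 lower at an unadjusted p under 0.05, none called by limma or voom). Cox8c, the testis form of a cytochrome oxidase subunit, stood at 58.02 and 27.7 FPKM in the controls and 15.3 and 18.4 FPKM in the mutants, and Cyct, the testis cytochrome c, at 35.04 and 24.1 against 15.01 and 18.4 FPKM (limma with Benjamini-Hochberg adjusted p = 0.474 and 0.433). The 7 somatic counterparts, which include Cox8a and Cox6b1, had a median of 0.19. The het libraries differed from each other in the germ cell forms, and the summed level of 5 spermatocyte markers moved in the same order, 541 and 376 FPKM in the controls and 335 and 337 FPKM in the mutants. Within that sum Ldhc stood at 78.0 and 30.7 against 11.7 and 10.6 FPKM and Piwil1 at 28.1 and 14.3 against 3.65 and 5.01 FPKM, while Spo11 and Sycp3 overlapped between the groups. Voom called 2 of the 5 lower and limma 0. The summed level of 5 Sertoli markers ran from 533 to 815 FPKM, mostly from Clu (398 and 499.96 against 657 and 561 FPKM), and the other 4 stayed between 23.9 and 47.9 FPKM in every library. All 4 macrophage markers were higher in both ko libraries, with sums of 19.1 and 20.2 against 29.5 and 24.6 FPKM, 2 of them at an unadjusted p under 0.05 and 0 called. In ko replicate 1 the spermatid genes Prm1 and Tnp1 reached 15.5 and 12.4 FPKM, and they were below 1 FPKM in the other libraries. The rest of the spermatid list did not rise alike. Spaca1 stood at 3.68 and 2.58 FPKM in the controls and 2.32 and 1.72 FPKM in the mutants. Acrv1 stayed at 0.183 FPKM or less in every library. The part of these markers in the values of the mitochondrial genes was not tested.

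**Figure D5:**
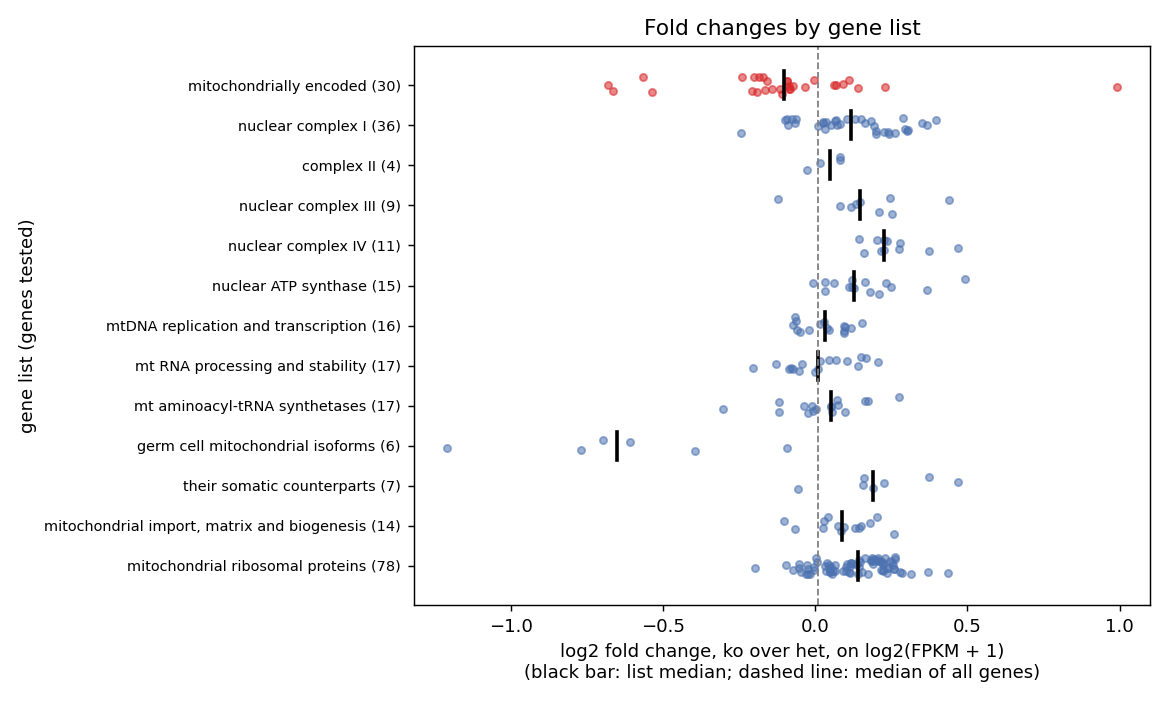
Log2 fold change of ko over het for the tested members (red) and for nuclear genes of mitochondrial function by list (blue), 1 point a gene, with list medians as black bars and the median of all genes as a dashed line. Member median -0.10, germ cell isoforms -0.65, cytochrome oxidase subunits 0.23.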

How the data were processed

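Each deposited table lists FPKM by gene symbol for 1 library, as its header states. The submitters' processing notes name GRCm38, edgeR, featureCounts, STAR 2.6.1a and CASAVA 1.9 without saying what each did. The sources used here do not give the annotation, the strand setting or how reads with several matches were handled. Symbols were matched to GENCODE M21 (GRCm38), all 37 members included, and reads were recovered as FPKM times exon length in steps of 1 read (at least 99.1% of values up to 20 reads were whole within 0.02). Because the tables hold FPKM, log2(FPKM + 1) of the 17905 genes averaging 1 FPKM or more was fitted by genotype in limma 3.58.1 (R 4.3.3) with an intensity trend, with Benjamini-Hochberg adjustment over all genes and a threshold of 0.05. Fold changes on this scale understate the change of low genes. Limma voom on whole reads was an alternative. Replicates differed by more than counting error (chi-square per gene 6.29 in het and 19.7 in ko over all genes with at least 20 reads in the pair). Over 27 members the values were 57.2 in het and 326 in ko. This measure grows with the reads of a gene. Transcripts of the members were aligned to all other GENCODE M21 transcripts by blastn 2.17.0, and printed sequences come from there. Every protein-coding and ribosomal RNA member was named, and transfer RNAs with a mean of at least 1 FPKM. From each nuclear list came the 2 tested genes with the smallest p, since none was called. Members and lists were chosen with earlier results of these data known.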

Additional observations from a re-analysis of the deposited data

How the results depend on the processing

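With 2 libraries a group, calls depended on the fit. Limma on FPKM called 37 genes higher and 2 lower, no filter gave 0 and 0, the replicate number as a block 15 and 0, leaving out any 1 library 0 and 0, voom on whole reads 135 and 108, and a restriction to protein-coding and mitochondrial rows 94 and 13. At an unadjusted p under 0.05 the fits called 605, 734, 563 and 986 genes higher and 498, 1034, 538 and 639 lower without het replicate 1, het replicate 2, ko replicate 1 and ko replicate 2. Members called lower numbered 0 in every limma fit on FPKM and 1 by voom on all libraries (mt-Rnr2, log2 fold change -0.57). With the replicate block no member was called. Libraries of the same number deviated together neither over all genes (r = -0.03) nor clearly over the 30 members (r = 0.25, across genes), so the numbers were not taken as pairs. Leaving out 1 library moved the median of the tested members from -0.23 to 0.044, and the ko minus het difference in the mt-Nd6 share of complex I from -0.230 to 0.433 percentage points. The log2 fold change changed sign when 1 library was left out, with these lowest and highest values, for mt-Rnr1 (-0.52 to 0.12), mt-Tl1 (-0.37 to 0.20), mt-Nd1 (-0.16 to 0.10), mt-Ti (-0.13 to 0.12), mt-Tq (-0.26 to 0.72), mt-Tm (-0.66 to 0.84), mt-Nd2 (-0.28 to 0.065), mt-Tw (-0.33 to 0.016), mt-Ta (-0.20 to 0.34), mt-Tn (-0.064 to 0.35), mt-Tc (-0.16 to 0.38), mt-Ty (-0.49 to 0.21), mt-Ts1 (-0.70 to 0.31), mt-Atp6 (-0.41 to 0.076), mt-Nd4 (-0.22 to 0.036), mt-Th (-0.32 to 0.087), mt-Ts2 (-0.32 to 0.18), mt-Nd6 (-0.24 to 0.052), mt-Te (-0.12 to 0.24), mt-Cytb (-0.21 to 0.035), mt-Tp (-0.39 to 0.022) and Sdhc (-0.10 to 0.26). None of these was called by limma on FPKM under any alternative. Quantile normalization turned mt-Tl1 (0.030), mt-Nd2 (0.11), mt-Co1 (0.084), mt-Nd4 (0.029), mt-Ta (-0.087) and mt-Tc (-0.10). A pseudocount of 0.1 and median-of-ratios scaling changed neither direction nor call of any of the 53 named genes. No filter, the block and the protein-coding restriction leave each fold change as it was, so they could not change a direction. They can change errors and calls, and none of the named genes gained a call, while none had a call to lose. With no filter the SE of mt-Rnr2 rose from 0.17 to 2.28. Causes were not tested. Where a group was left with 1 library, that library was assumed to vary like the other group. mt-Rnr2 lay between -0.62 and -0.43 in every fit, the voom fits without 1 library, chosen after seeing the data, included. Low counts limit the 10 members of the gap.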
